A study of Mus musculus with 18 samples.

Results

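The comparison described here set 3 cortex libraries taken 24 h after a stroke-like occlusion against 3 sham-operated cortex libraries, all from mice that had received a scramble control shRNA; these are 6 of the 18 libraries of the series. The libraries were chosen by their labels alone and are named Sham_C1 to Sham_C3 and R24h_C1 to R24h_C3. All came from male C57BL/6J mice of 8 to 10 weeks and 24 to 26 g. Every mouse of these groups carried an adeno-associated virus (AAV), delivered to the left lateral ventricle 4 weeks before surgery, in which the synapsin promoter, active in neurons, drove a scramble short hairpin RNA (shRNA). The mice then had sham surgery or a transient closure of the middle cerebral artery (tMCAO), the vessel supplying lateral cortex and striatum. Poly(A) RNA of the ipsilateral cortex was sequenced 24 h after tMCAO. For the sham libraries the labels give no time after surgery. The rest of the series holds the same surgery under an shRNA against Tiparp and cortex taken 28 d after tMCAO. The labels do not say that each library is a separate mouse, so the p-values speak only of spread among libraries, part of which may be technical.

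Occlusion deprives neurons of oxygen and glucose, and reopening the artery brings oxidative stress and blood-borne leukocytes. Microglia and blood vessels answer within hours by releasing cytokines, chemokines and adhesion molecules, and astrocytes enlarge and switch on intermediate filament, acute-phase and interferon-induced genes. Neurons that survive or are silenced lose transcripts whose level depends on electrical activity.

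Values are FPKM (fragments mapped to a gene, normalised to its length and to all mapped fragments), and a difference is the mean of the 24 h libraries minus the mean of the sham libraries on the log2(FPKM + 1) scale, given with its standard error (SE). This scale understates the change of genes near 0 FPKM. Of 37319 genes in the file, 13880 reached 1 FPKM in at least 3 of the 6 libraries and were tested with limma at a Benjamini-Hochberg adjusted p of 0.05. A gene passed in 24% of cases: 2747 were higher at 24 h (19.8%) and 588 lower (4.24%), and 714 (5.14%) and 50 (0.36%) of these had a log2 difference of 1 or more in size. The median difference over all tested genes was 0.127, and the groups did not overlap in 47.9% of them (36.1% higher, 11.8% lower). All 2747 higher and all 588 lower genes were without overlap. A statement below that the groups of a called gene did not overlap therefore adds nothing to its call. The counts moved widely when 1 library was left out. With the same genes tested, 482 were higher without Sham_C2, 672 without Sham_C3, 687 without Sham_C1 and 788 without R24h_C1. Without R24h_C3 2077 were higher and without R24h_C2 4163, and the lower genes ranged from 57 to 1248. A fit with 1 library fewer also has less power, which was not separated from the part of the library itself. Of the higher genes 460 (16.7%) kept their call whichever library was left out, and of those higher by at least 1, 380 did (53.2%). For the lower genes these were 45 (7.65%) and, of those lower by at least 1, 19 (38%). Sham_C1, Sham_C2, Sham_C3 and R24h_C1 are called the 4 limiting libraries below, because the counts were lowest without one of them. Unless a sentence says otherwise, each gene named below kept its call with every one of the 6 libraries left out in turn and the same genes tested, an alternative added after the values were seen.

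**Figure D1:**
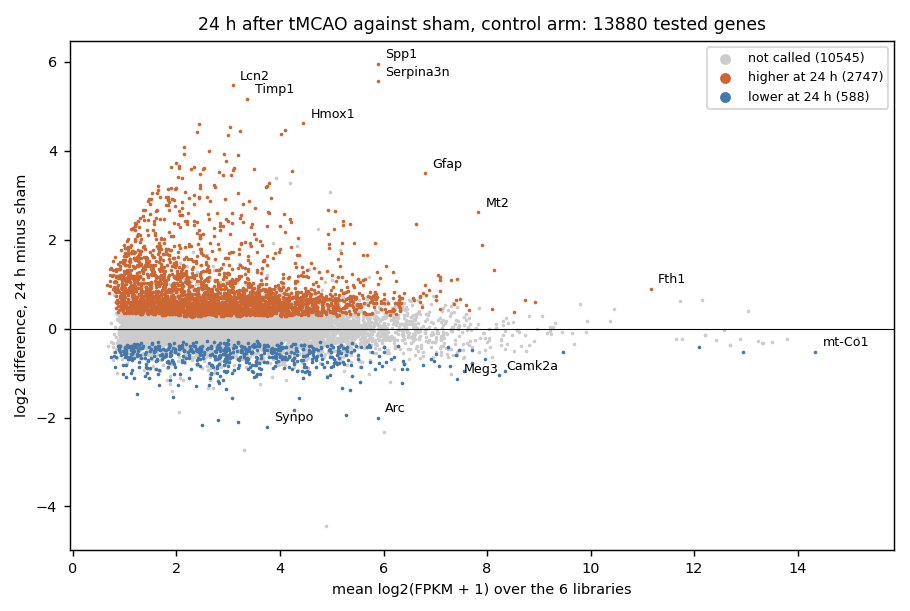
Each point is 1 of the 13880 tested genes, with its mean log2(FPKM + 1) over the 6 libraries on the horizontal axis and the log2 difference, 24 h minus sham, on the vertical axis, coloured by its limma call. Genes called higher (2747) reach 5.95 for Spp1, and genes called lower (588) reach -2.21 for Synpo.

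The 24 h libraries differed among themselves more than the sham libraries did. R24h_C3 stood apart. Transthyretin (Ttr), made by the choroid plexus, was at 1682 FPKM there and between 7.11 and 13.4 FPKM in the other 5 libraries. The summed FPKM of the 12 striatal neuron markers was 412 in R24h_C3, against 133 to 212 in sham and 82.5 and 134 in R24h_C1 and R24h_C2, and that of the excitatory neuron markers was 230 against 670 to 707 in sham and 422 and 574. R24h_C2 had the smallest rise of the 24 h libraries for most genes named here. Neutrophil markers summed to 3.96 to 4.35 FPKM in sham and to 48.4, 29.8 and 219 in R24h_C1 to R24h_C3, and monocyte and macrophage markers to 3.62 to 4.12 and to 126, 36.7 and 147. The T cell gene Cd3e was at or near 0, at most 0.0612 FPKM. The labelled cortex was present in all 6, with Slc17a7, the vesicular glutamate transporter of cortical excitatory neurons, at 131 to 137 FPKM in sham and at 108, 143 and 42.6 FPKM at 24 h. In tissue RNA, fewer cells of a type and less RNA per cell cannot be told apart. The part of these cell mixtures in the results below was not tested. Whether strand was used in quantification is not given in the sources used here, and of the genes named below Stat3 overlaps Stat5a, P2ry12 overlaps Med12l, Gpr34 overlaps Cask, Cebpd overlaps Spidr and Nfkb2 overlaps Psd on the opposite strand, so their reads cannot be told apart with certainty.

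The scale of the values also moved with the groups. Mitochondrially encoded genes took 40.0% ± 1.60 of the FPKM in sham and 35.1% ± 0.916 at 24 h (SD, n = 3 each), 4.93 points less (-4.93) without overlap; an exact two-sided permutation test gave p = 0.1, the smallest that 3 against 3 allows. Median-ratio scaling, which sets each library so that its median gene is level with the others, moved the median difference from 0.127 to -0.014. The calls then became 1565 higher (11.3%) and 1104 lower (7.95%), 19.2% in all, so that 58.6% of the called genes were higher rather than 82.4%. All 588 lower genes stayed lower, 516 genes were added to them, no gene was added to the higher ones, and no called gene changed direction. Where a group of genes depends on this choice, its scaled count follows it below.

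The transcripts that rose most coded largely for secreted proteins. Of the 25 largest rises, 15 carried the gene ontology (GO) entry extracellular space in the deposited file. So did 168 of the 714 genes that rose by at least 1 (23.5%) and 4.98% of all tested genes. Of the 714, 294 were under 1 FPKM in all sham libraries and could enter the test only through the 24 h libraries. At 1 FPKM or more in every sham library were 549 genes with the entry. Of these 160 rose (29.1%), against 17.3% of all genes at that level. Cytokine activity was the entry of 6 of the 25. Of its 47 genes at 1 FPKM or more in every sham library, 9 rose (19.1%) and 4 fell. Spp1 (ENSMUSG00000029304, osteopontin, a matrix protein and chemoattractant) was at 6.77, 6.34 and 6.55 FPKM in Sham_C1 to Sham_C3 and at 666, 216 and 703 FPKM in R24h_C1 to R24h_C3. The groups lay far apart although R24h_C2 was the lowest of its group, and the difference was 5.95 (SE 0.43, limma adjusted p = 0.00151). Serpina3n (ENSMUSG00000021091), a secreted serine protease inhibitor of reactive astrocytes, was at 8.14, 6.19 and 8.67 FPKM in sham and at 364, 360 and 511 FPKM at 24 h. Its 24 h libraries lay close together, with a difference of 5.56 on the log2 scale (SE 0.18, limma adjusted p = 6.89e-05). Hmox1 (ENSMUSG00000005413), the inducible heme oxygenase, was at 3.94, 3.60 and 2.80 FPKM in sham and at 161, 45.4 and 168 FPKM at 24 h. Every 24 h library exceeded every sham library, and the difference was 4.62 (SE 0.49, limma adjusted p = 0.00389).

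Genes hardly present in sham form a class of their own. Of the 2747 higher genes, 439 were under 1 FPKM in all 3 sham libraries and 24 were under 0.1 FPKM; such genes could enter the test only because they were high at 24 h. For that reason each list is given by its members at 1 FPKM or more in every sham library, called the sham-expressed members below, whose entry did not depend on the 24 h values. The count over all tested members stands beside it for completeness. Over all such genes, 12508, the median difference was 0.104 and 2164 were higher (17.3%) and 588 lower. Of the 588 lower genes, 41 were under 1 FPKM in all 24 h libraries. Those 41 could enter the test only because they were high in sham.

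**Figure D2:**
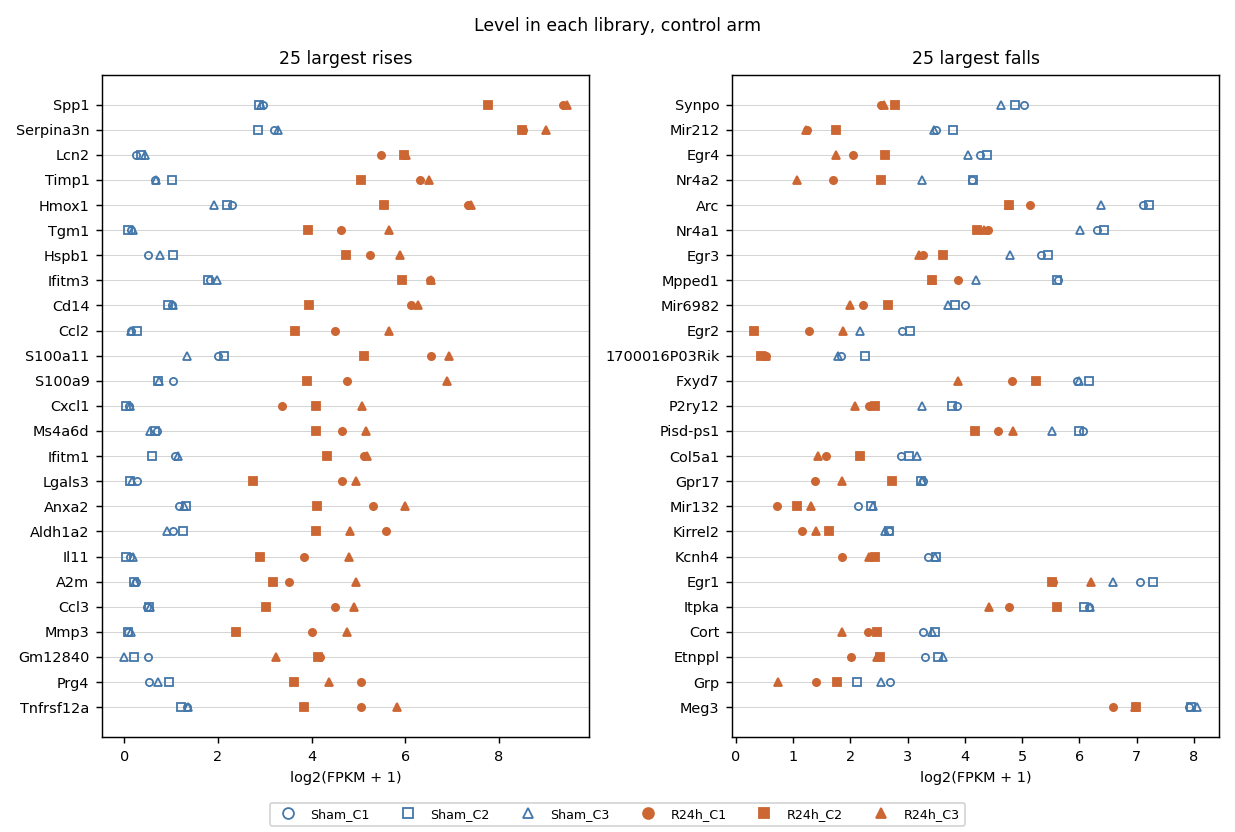
The level, log2(FPKM + 1), in each of the 3 sham (open) and 3 R24h_C (filled) libraries is shown for the 25 largest rises and the 25 largest falls of passing genes with separate groups. R24h_C2 (square) is the lowest 24 h library for most of the rises.

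All 9 sham-expressed reactive astrocyte genes rose (median difference 1.85). Of all 34 tested, of 35 listed, 33 rose and none fell, but 20 of the 34 were under 1 FPKM in all sham libraries. Those 20 could be tested only because they were high at 24 h. Gfap (ENSMUSG00000020932), the intermediate filament protein of astrocytes, was at 35.6, 29.9 and 31.7 FPKM in sham and at 341, 372 and 414 FPKM at 24 h. The 24 h libraries hardly differed, and the difference was 3.49 (SE 0.12, limma adjusted p = 6.89e-05). Vim (ENSMUSG00000026728), the intermediate filament protein vimentin, rose by 3.58 on the same scale, and Osmr (ENSMUSG00000022146), the oncostatin M receptor, by 2.46. Over all 34 tested members 33 rose again without R24h_C3, and the lowest count, without Sham_C2, was 26. By contrast the 13 homeostatic astrocyte markers had 2 higher and 2 lower members and a median of -0.22. After median-ratio scaling none of them was higher and 7 were lower, and without R24h_C3 1 was higher and 5 were lower. Without Sham_C2 or Sham_C3 none passed in either direction. Slc1a2 (ENSMUSG00000005089), the main glutamate transporter of astrocytes, was at 206, 207 and 202 FPKM in sham and at 120, 145 and 145 FPKM at 24 h. The groups did not overlap (-0.59, SE 0.11, limma adjusted p = 0.0153), but its call was lost without any one of the sham libraries (adjusted p up to 0.076) and, with the filter applied anew, also without R24h_C1 (adjusted p = 0.0657).

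All 10 sham-expressed interferon-induced genes rose (median 1.23 on the log2 scale). All 27 tested of 35 listed rose too, but 14 of the 27 were under 1 FPKM in all sham libraries. Those 14 could be tested only because they were high at 24 h. The count over all 27 was 26 without R24h_C3 and 19 at its lowest, without Sham_C2. After median-ratio scaling it was 25. Gbp2 (ENSMUSG00000028270), an interferon-induced GTPase, was at 0.195, 0.302 and 0.289 FPKM in sham and at 13.5, 12.7 and 10.9 FPKM at 24 h. Here R24h_C2 was level with the others, and the difference was 3.40 (SE 0.10, limma adjusted p = 6.89e-05). Ifitm3 (ENSMUSG00000025492), a membrane protein that restricts virus entry, was at 2.57, 2.46 and 2.96 FPKM in sham and at 91.7, 60.0 and 92.4 FPKM at 24 h, far above all sham libraries (4.47, SE 0.18, limma adjusted p = 0.000164). Of 8 sham-expressed MHC and antigen presentation genes 7 rose, and of all 12 tested 10, among them the class I genes H2-D1 (1.84) and H2-K1 (1.69), which have close relatives in the genome among which reads may be shared. Without Sham_C1 or Sham_C2 6 of the 12 passed.

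The promoter of Gbp2 is shown because 12 of the 24 tested interferon-induced genes with a promoter in the RefSeq table (build GRCm38.p6, 250 bases before to 50 after the start) hold the interferon-stimulated response element (GAAA, any 2 bases, GAAA) on either strand. That element was in 3.49% of 9792 tested promoters. It was in 6.92% of 520 promoters of genes that rose by at least 1 and in 3.29% of 365 of genes that fell. The 12 listed genes holding it all rose, but so did every tested gene of the list, so their rise says nothing of the element. Gbp2 lies on the plus strand, and the stretch below ends at the base before its start, chr3:142620543-142620662, with the match in capitals.
Gbp2: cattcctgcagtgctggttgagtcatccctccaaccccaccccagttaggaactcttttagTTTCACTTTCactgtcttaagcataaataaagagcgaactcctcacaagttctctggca
The letters in capitals are the element read on the other strand, 59 to 50 bases before the start (-59 to -50). A match is a description of these letters and shows no binding.

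Chemokines that rose did so from low levels. Of the 4 sham-expressed chemokines none rose and 1 fell. Of all 16 tested 12 rose and 1 fell, 11 of the 16 being under 1 FPKM in all sham libraries. Ccl2 (ENSMUSG00000035385), which draws monocytes, was at 0.108, 0.209 and 0.102 FPKM in sham and at 21.7, 11.5 and 49.5 FPKM at 24 h, so that R24h_C3 was highest and the groups were far apart (4.41, SE 0.46, limma adjusted p = 0.00384). Cxcl1 (ENSMUSG00000029380), which draws neutrophils, was at 0.0712, 0.0317 and 0.0931 FPKM in sham and at 9.36, 16.2 and 32.6 FPKM at 24 h (4.09, SE 0.39, limma adjusted p = 0.00297). Ccl4 (ENSMUSG00000018930), another leukocyte chemoattractant, was listed at 0 in all sham libraries and at 9.98, 2.45 and 13.9 FPKM at 24 h; its call was lost without Sham_C2 or R24h_C1 (adjusted p up to 0.0559). Without R24h_C3 10 chemokines rose, and without any one of the 4 limiting libraries 5 or 6 did.

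Of 4 sham-expressed interleukin-6 family genes 1 rose (median 0.23). Of all 11 tested 7 rose and none fell, 6 of the 11 being under 1 FPKM in all sham libraries; 4 or 5 rose without any one of the 4 limiting libraries. Il11 (ENSMUSG00000004371), a cytokine of that family, was at 0.0904, 0.0295 and 0.145 FPKM in sham and at 13.4, 6.48 and 26.8 FPKM at 24 h (3.73, SE 0.43, limma adjusted p = 0.00501). The sham libraries were all close to 0, and R24h_C3 was the highest of the 24 h libraries. Downstream of this family, Stat3 (ENSMUSG00000004040), the transcription factor that its receptors activate, was at 4.13, 4.43 and 3.79 FPKM in sham and at 20.9, 14.3 and 21.4 FPKM at 24 h (1.94, SE 0.16, limma adjusted p = 0.00215). Socs3 (ENSMUSG00000053113), the feedback inhibitor of the same receptors, was at 1.12, 1.10 and 1.09 FPKM in sham and at 25.5, 14.4 and 33.0 FPKM at 24 h, again without overlap (3.51, SE 0.27, limma adjusted p = 0.00172). Of 16 sham-expressed JAK-STAT and SOCS genes 6 rose and 1 fell (median 0.30), and of all 18 tested 7 rose and 1 fell; 3 rose without Sham_C2, 4 without Sham_C1. In the interleukin-1 and TNF family 3 of 7 sham-expressed genes rose (median 0.58) and 7 of all 11 tested, including the receptor genes Tnfrsf1a (2.87) and Tnfrsf12a (3.61), and 4 rose without any one sham library. Of 7 sham-expressed NF-kB subunits and feedback genes 5 rose, and of all 11 tested 9, with Bcl3 (2.79) and Nfkb2 (1.62) as examples; 4 of the 11 rose without any one of the 4 limiting libraries.

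NF-kB is the transcription factor family that many of these cytokines feed, and 3 promoters are shown because they hold the NF-kB motif (GGGA, any base, TTTCC), searched on both strands. It was in 0.47% of the 9792 tested promoters, in 2.31% of the 520 of genes that rose by at least 1 and in 0.548% of the 365 of genes that fell. Of tested chemokines with a promoter in the RefSeq table, 2 of 12 held it (Cxcl1 and Cxcl2). Of NF-kB subunit and feedback genes, 2 of 8 did (Nfkb2 and Nfkbia). Cxcl2 and Nfkbia were added to the genes named after their values were seen.
Cxcl1 (plus strand, chr5:90891119-90891238): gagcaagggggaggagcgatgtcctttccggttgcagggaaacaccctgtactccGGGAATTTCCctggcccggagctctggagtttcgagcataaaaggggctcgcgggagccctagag
Cxcl2 (plus strand, chr5:90903747-90903866): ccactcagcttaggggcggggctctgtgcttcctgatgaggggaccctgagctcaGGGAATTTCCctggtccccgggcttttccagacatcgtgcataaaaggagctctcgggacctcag
Nfkbia (minus strand, chr12:55492648-55492767): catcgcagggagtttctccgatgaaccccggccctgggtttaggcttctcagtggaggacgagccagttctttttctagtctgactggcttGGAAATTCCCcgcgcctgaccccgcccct
The neighbouring genes Cxcl1 and Cxcl2 carry the same 10 letters in capitals, and in Nfkbia the motif is read on the other strand. Nfkbia (ENSMUSG00000021025), the inhibitor that holds NF-kB in the cytoplasm, was at 9.41, 10.3 and 11.4 FPKM in sham and at 21.2, 19.4 and 27.3 FPKM at 24 h, without overlap (1.05, SE 0.14, limma adjusted p = 0.00799). Cxcl2 (ENSMUSG00000058427) was at 0.0295, 0.0287 and 0.0281 FPKM in sham and at 1.16, 1.74 and 8.10 FPKM at 24 h. R24h_C3 was the highest, and the call (limma adjusted p = 0.0394) was lost without any sham library or without R24h_C1 (adjusted p up to 0.118).

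Markers of phagocytes, the complement system and lysosomes were higher. Of 26 sham-expressed lysosome and phagocytosis genes 19 rose and 1 fell (median 1.0 on the log2 scale), and of all 34 tested 27 rose and 1 fell. Cd68 (ENSMUSG00000018774), a lysosomal protein of microglia and macrophages, was at 11.9, 13.7 and 11.8 FPKM in sham and at 104, 57.0 and 95.7 FPKM at 24 h (2.64, SE 0.23, limma adjusted p = 0.00237). All 24 h libraries were above all sham libraries. Of 11 sham-expressed complement genes 8 rose (median 1.56), and of all 16 tested 12. They include the anaphylatoxin receptor gene C3ar1 (2.95) and the C1 inhibitor gene Serping1 (2.58). Without R24h_C3 the lysosome count was 24 and the complement count 12. Without any one sham library 15 to 17 lysosome genes and 9 complement genes rose.

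The marker lists of the resident and infiltrating cells did not move as one. Of 12 tested microglia markers 3 rose and 4 fell, and 1 rose and 2 or 3 fell without any one sham library. P2ry12 (ENSMUSG00000036353), the ADP receptor of resting microglia, was at 13.5, 12.8 and 8.52 FPKM in sham and at 4.0, 4.39 and 3.23 FPKM at 24 h, with no overlap (-1.35, SE 0.18, limma adjusted p = 0.00753). Gpr34 (-0.91), another microglial receptor gene, was also lower, while Fcrls, an Fc receptor-like gene of microglia, rose by 1.93. The 1 sham-expressed monocyte and macrophage marker rose, as did all 9 tested, 7 of them from under 1 FPKM in all sham libraries, for example the scavenger receptor gene Msr1 (3.20) and the arginase gene Arg1 (2.30). The 1 sham-expressed neutrophil marker did not pass, and 4 of 12 were tested, of which 3 rose, but 1 without Sham_C1 or Sham_C3 and none without Sham_C2. S100a9 (ENSMUSG00000056071), a calcium-binding protein abundant in neutrophils, was at 1.05, 0.637 and 0.665 FPKM in sham and at 25.9, 13.9 and 117 FPKM at 24 h. R24h_C3 was the highest by far, and the call (4.35, SE 0.69, limma adjusted p = 0.0109) was lost without Sham_C2 (adjusted p = 0.0547) and, with the filter applied anew, without R24h_C1 (adjusted p = 0.0576). Neither of the 2 tested lymphocyte markers passed, and the summed level of all 12 was 5.25 to 8.61 FPKM at 24 h against 8.01 to 9.82 FPKM in sham.

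Vessel, adhesion and coagulation genes were higher too. Of 6 sham-expressed endothelial markers 4 rose, of all 10 tested 8 rose and none fell, and the summed level of all 12 was 42.1 to 44.4 FPKM in sham and 90.2, 80.9 and 141 FPKM at 24 h. Cdh5 (ENSMUSG00000031871), the cadherin of endothelial junctions, was at 1.15, 1.03 and 0.822 FPKM in sham and at 11, 5.87 and 13.6 FPKM at 24 h (2.41, SE 0.27, limma adjusted p = 0.00446). Cldn5 (1.84), the claudin of the blood-brain barrier, and the adhesion gene Pecam1 (2.08) also rose, and none of the sham libraries reached a 24 h library. With the filter applied anew Pecam1 was lost without R24h_C1 (adjusted p = 0.0511). Selp (ENSMUSG00000026580), the P-selectin that catches leukocytes on activated endothelium, was at 0, 0 and 0.0396 FPKM in sham and at 2.39, 6.02 and 3.91 FPKM at 24 h (2.27, SE 0.25, limma adjusted p = 0.00446). R24h_C2 was here the highest library. The adhesion receptor gene Icam1 rose by 2.45, and of 17 sham-expressed blood-brain barrier and angiogenic genes 11 rose and 1 fell. Of all 28 tested 22 rose and 1 fell; 20 rose without R24h_C3 and 9 to 11 without any one of the 4 limiting libraries.

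Of 8 sham-expressed coagulation and fibrinolysis genes 6 rose (median 1.41), and of all 19 tested 17 rose and none fell; without R24h_C3 15 rose, and without any one sham library 8 or 9 did. Plaur (ENSMUSG00000046223), the urokinase receptor, was at 0.236, 0.218 and 0.266 FPKM in sham and at 9.77, 5.30 and 19.0 FPKM at 24 h (3.16, SE 0.38, limma adjusted p = 0.00544). Anxa2 (ENSMUSG00000032231), an annexin that binds plasminogen and its activator at the cell surface, was at 1.25, 1.48 and 1.42 FPKM in sham and at 38.7, 16.4 and 62.8 FPKM at 24 h (3.89, SE 0.43, limma adjusted p = 0.00446). In both genes R24h_C3 was highest, R24h_C2 lowest, and no sham library came near. Their promoters are shown because 7 of the 12 tested members with a promoter in the table hold the AP-1 site TGACTCA on either strand. Of these 7, 6 rose, but so did 17 of all 19 tested members, so their rise says nothing of the site. The site was in 4.27% of the 9792 tested promoters, in 11.3% of the 520 of genes that rose by at least 1 and in 3.01% of the 365 of genes that fell.
Plaur (plus strand, chr7:24462357-24462476): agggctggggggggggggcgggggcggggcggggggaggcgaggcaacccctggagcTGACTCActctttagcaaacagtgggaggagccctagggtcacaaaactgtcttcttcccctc
Anxa2 (plus strand, chr9:69453531-69453650): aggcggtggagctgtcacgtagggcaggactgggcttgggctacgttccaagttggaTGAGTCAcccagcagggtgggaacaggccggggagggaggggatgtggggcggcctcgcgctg
The site lies 69 to 63 bases before the start of Plaur (-69 to -63) and, on the other strand, 95 to 89 bases before that of Anxa2 (-95 to -89). AP-1 is a dimer of Fos, Jun and ATF proteins. Of 26 sham-expressed AP-1, CEBP, KLF and other stress-induced transcription factor genes 15 rose, and of all 29 tested 18 rose and none fell, with 13 without R24h_C3 and 7 or 8 without any one of the 4 limiting libraries. Atf3 (ENSMUSG00000026628), a stress-induced member, was at 0.355, 0.521 and 0.122 FPKM in sham and at 14.1, 4.94 and 17.8 FPKM at 24 h, with a difference of 3.17 (SE 0.41, limma adjusted p = 0.00669). Jun (1.32), Klf6 (1.54) and Cebpd (2.41) rose as well. With the filter applied anew Jun and Klf6 were lost without R24h_C1 (adjusted p = 0.0578 and 0.0532).

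Matrix, adhesion and cytoskeleton genes held many higher members. Of 19 sham-expressed matrix and matricellular genes 11 rose and 2 fell (median 0.87), and of all 31 tested 23 rose and 2 fell, with 22 higher without R24h_C3, 15 without Sham_C1 or Sham_C3 and 11 without Sham_C2. Timp1 (ENSMUSG00000001131), an inhibitor of metalloproteinases, was at 0.584, 1.04 and 0.592 FPKM in sham and at 79.0, 32.2 and 89.4 FPKM at 24 h (5.17, SE 0.37, limma adjusted p = 0.00151). It lies within Syn1 on the opposite strand. Adamts1 (ENSMUSG00000022893), a protease of the matrix, rose by 3.19 and Tgfbi, a secreted adhesion protein, by 3.49. Of 14 sham-expressed integrins and adhesion molecules 6 rose and 1 fell (median 0.47), and of all 22 tested 14 rose and 1 fell, among them the hyaluronan receptor gene Cd44 (2.84) and the fibronectin receptor subunit gene Itga5 (2.56); 9 rose without Sham_C1 or Sham_C2. Of 35 sham-expressed cytoskeleton genes 20 rose and 1 fell (median 0.63), and of all 41 tested 26 rose and 1 fell, including the actin-binding protein gene Tagln2 (3.56) and the tubulin gene Tubb6 (3.44). Of the cytoskeleton genes 13 or 14 rose without any one of the 4 limiting libraries. Of 13 sham-expressed annexins and S100 proteins 10 rose (median 1.17), and of all 18 tested 15 rose and none fell. Without R24h_C3 15 rose as well, but 9 rose without Sham_C3 and 5 without Sham_C2.

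**Figure D3:**
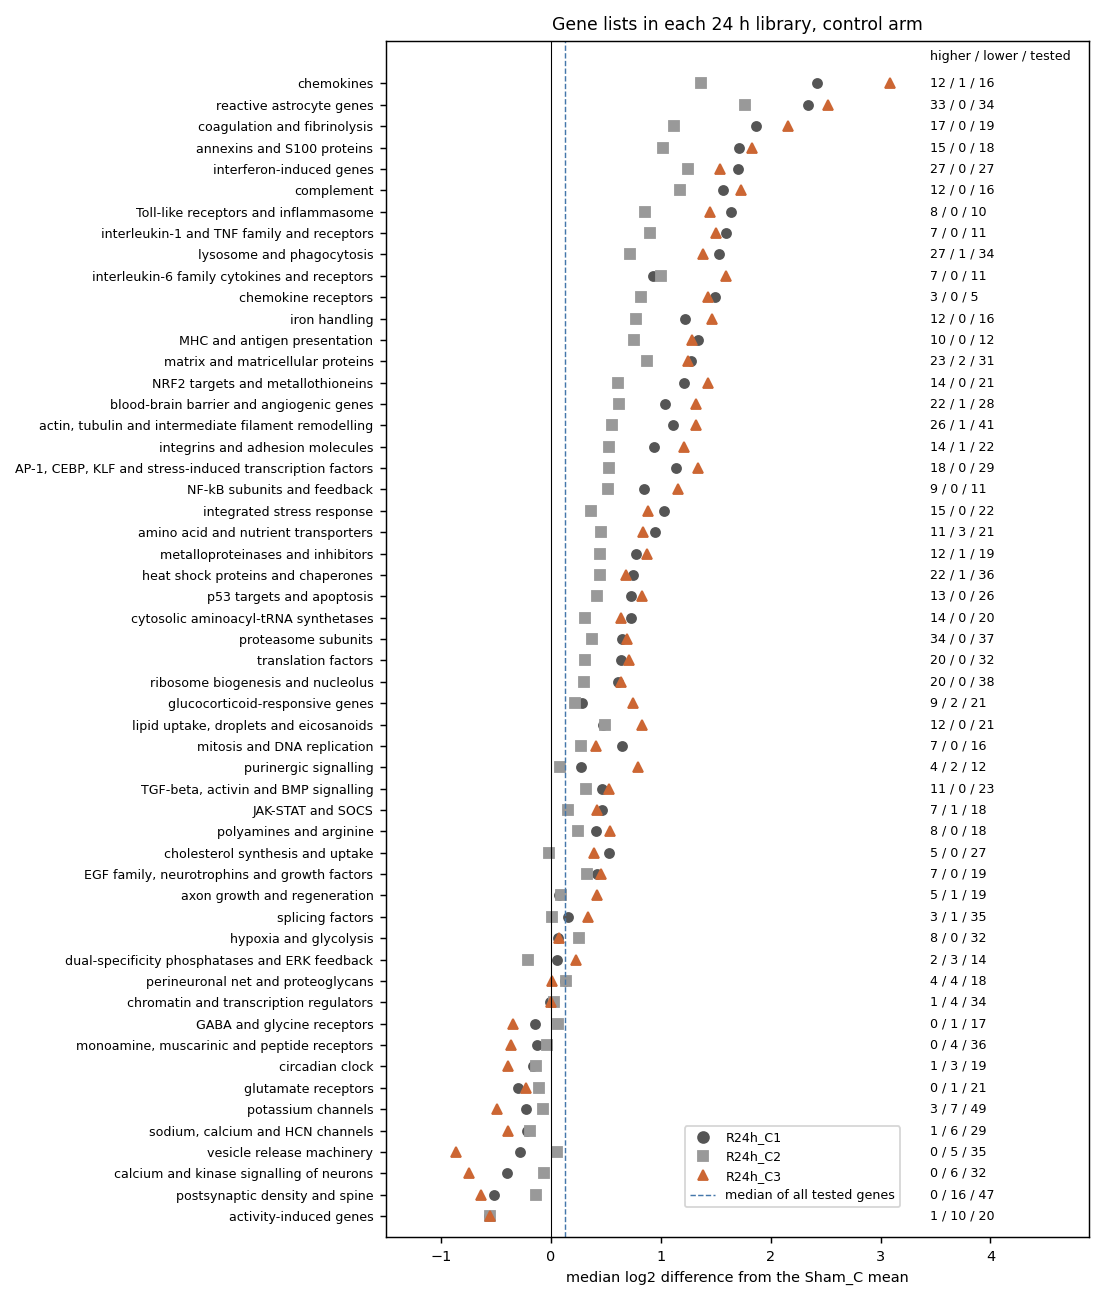
For each gene list the points give the median log2 difference of its tested members from the Sham_C mean in R24h_C1, R24h_C2 and R24h_C3, with the counts higher, lower and tested at the right and the median of all tested genes (0.127) as a dashed line. R24h_C2 lies nearest to 0 in most lists that rose, and activity-induced and synaptic lists lie at the bottom.

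Some lists of stress response genes also held many higher members. Of 21 tested NRF2 target and metallothionein genes, all at 1 FPKM or more in every sham library, 14 rose and none fell (median 1.05), and 5 to 9 rose without any one of the 4 limiting libraries. Mt2 (ENSMUSG00000031762), a metallothionein that binds zinc and copper, was at 102, 86.0 and 87.1 FPKM in sham and at 519, 467 and 737 FPKM at 24 h, without overlap (2.61, SE 0.18, limma adjusted p = 0.00145). Of 9 sham-expressed iron handling genes 6 rose (median 0.90), of all 16 tested 12 rose and none fell, and 7 rose without Sham_C2. Trf (ENSMUSG00000032554), the iron carrier transferrin, was at 15.6, 17.0 and 18.3 FPKM in sham and at 83.9, 62.5 and 143 FPKM at 24 h (2.36, SE 0.28, limma adjusted p = 0.00542). Fth1 (ENSMUSG00000024661), the ferritin heavy chain and one of the most abundant nuclear transcripts here, was at 1704, 1703 and 1617 FPKM in sham and at 3274, 2435 and 3813 FPKM at 24 h. Its groups did not overlap (0.90, SE 0.17, limma adjusted p = 0.0172), but the call was lost without any sham library or without R24h_C1 (adjusted p up to 0.0753).

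Of 22 sham-expressed p53 target and apoptosis genes 10 rose (median 0.53). Of all 26 tested 13 rose and none fell, 11 rose without R24h_C3, and 2 to 4 did without any one of the 4 limiting libraries. Cdkn1a (ENSMUSG00000023067), the p21 inhibitor of the cell cycle, was at 14.9, 17.8 and 14.2 FPKM in sham and at 87.5, 51.1 and 122 FPKM at 24 h (2.33, SE 0.30, limma adjusted p = 0.00651). Of 19 sham-expressed integrated stress response genes 12 rose (median 0.72), and of all 22 tested 15 (11 after median-ratio scaling, 4 or 5 without any one of the 4 limiting libraries), including the cystine transporter gene Slc7a11 (1.78). Of 29 sham-expressed hypoxia and glycolysis genes 5 rose (17.2%, median 0.04), against 17.3% and a median of 0.104 over all sham-expressed genes. Of all 32 tested 8 rose and none fell, 5 rose without Sham_C2, and after median-ratio scaling 7 rose and 2 fell. Of these Slc2a3 (1.37), the neuronal glucose transporter gene, and Adm (1.72), the vasodilator adrenomedullin gene, were higher. Of 12 sham-expressed mitosis and DNA replication genes 4 rose (median 0.27), and of all 16 tested, of 42 listed, 7 rose, and 1 to 3 did without any one of the 4 limiting libraries.

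Heat shock genes rose with large differences for a few of them. Of 34 sham-expressed heat shock proteins and chaperones 20 rose and 1 fell (median 0.60). Of all 36 tested 22 rose and 1 fell; 21 rose without R24h_C3, and 8, 5, 8 and 11 without Sham_C1, Sham_C2, Sham_C3 and R24h_C1. Hspa1b (ENSMUSG00000090877), an inducible Hsp70, was at 5.63, 3.50 and 4.69 FPKM in sham and at 83.5, 36.5 and 83.0 FPKM at 24 h (3.54, SE 0.33, limma adjusted p = 0.00297). Hspa1a (3.21) is a near-identical copy, and how reads were split between them is not given in the sources used here. Hspb1, the small heat shock protein 25, rose by 4.53 and has a near-identical pseudogene. The promoter between Hspe1 and Hspd1, the mitochondrial chaperonin pair, is shown because the same stretch lies before both genes, which are read in opposite directions. It holds the heat shock element (TTC, any 2 bases, GAA, any 2 bases, TTC), searched on both strands and found in 0.541% of tested promoters, 0.769% of those of genes that rose by at least 1, 0.822% of those of genes that fell, and the promoters of 5 of 30 chaperone genes, 3 of which rose.
Hspe1 (plus strand, chr1:55088010-55088129): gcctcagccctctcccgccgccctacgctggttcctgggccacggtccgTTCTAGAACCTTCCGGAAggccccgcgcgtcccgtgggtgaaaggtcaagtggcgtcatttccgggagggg
The capitals mark 2 overlapping matches. Hspe1 and Hspd1 were named after their values were seen. Hspe1 was at 19.9, 17.2 and 17.8 FPKM in sham and at 55.6, 31.0 and 57.6 FPKM at 24 h (1.30, SE 0.24, limma adjusted p = 0.015). Hspd1 was at 31.5, 29.0 and 29.0 FPKM in sham and at 78.4, 46.4 and 78.4 FPKM at 24 h (1.12, SE 0.21, limma adjusted p = 0.016). R24h_C2 had the smaller rise in both, and both calls were lost without any sham library or without R24h_C1 (adjusted p up to 0.0688 and 0.0709).

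Genes of protein synthesis and breakdown had small differences in the same direction, and their counts moved with the scaling and with single libraries. Of 36 sham-expressed proteasome subunits 33 rose (median 0.57), and of all 37 tested 34 rose, 20 after median-ratio scaling, 27 without R24h_C3, and 7, 2, 5 and 6 without Sham_C1, Sham_C2, Sham_C3 and R24h_C1. Psma6 (ENSMUSG00000021024), a subunit of the core ring, was at 43.5, 36.1 and 39.4 FPKM in sham and at 69.6, 55.2 and 75.3 FPKM at 24 h. The groups did not overlap (0.73, SE 0.14, limma adjusted p = 0.0178), but the call was lost without any sham library or without R24h_C1 (adjusted p up to 0.0815). Psmb8 (ENSMUSG00000024338), an interferon-induced subunit of the immunoproteasome, was at 0.550, 0.337 and 0.378 FPKM in sham and at 3.61, 2.47 and 2.15 FPKM at 24 h and kept its call throughout (1.38, SE 0.16, limma adjusted p = 0.00514). Of 20 tested cytosolic aminoacyl-tRNA synthetases, all sham-expressed, 14 rose, with 8 after scaling, 9 without R24h_C3 and 0 or 1 without any one of the 4 limiting libraries. Of 31 sham-expressed translation factors 19 rose and of all 32 tested 20, with 14 after scaling, 16 without R24h_C3 and 0 to 5 without any one of the 4 limiting libraries. Of 37 sham-expressed ribosome biogenesis genes 20 rose, and of all 38 tested 20, with 17 after scaling, 15 without R24h_C3 and 0 to 6 without any one of the 4 limiting libraries. None of these lists held a lower gene. Npm1 (ENSMUSG00000057113), the nucleolar chaperone nucleophosmin, was at 43.5, 39.6 and 39.7 FPKM in sham and at 87.8, 66.5 and 99.9 FPKM at 24 h (1.01, SE 0.16, limma adjusted p = 0.0101). Its call was lost without Sham_C2 (adjusted p = 0.0556) and, with the filter applied anew, without R24h_C1 (adjusted p = 0.0602). By the GO column, 97 of 280 translation genes rose (34.6%) and none fell, which became 37 and 2 after scaling. Without Sham_C2 1 of them rose and without R24h_C2 194 did. Of 286 mRNA processing genes 61 rose (21.3%, against 19.8% of all tested genes) and 6 fell, which became 14 and 17 after scaling; 2 rose without Sham_C2 and 119 without R24h_C2. Of 35 splicing factors 3 rose and 1 fell, which became 1 and 3 after scaling, and 14 rose without R24h_C2 but 1 without any one of the 4 limiting libraries. Hnrnpf, an RNA-binding splicing regulator, had a difference of 1.48.

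**Figure D4:**
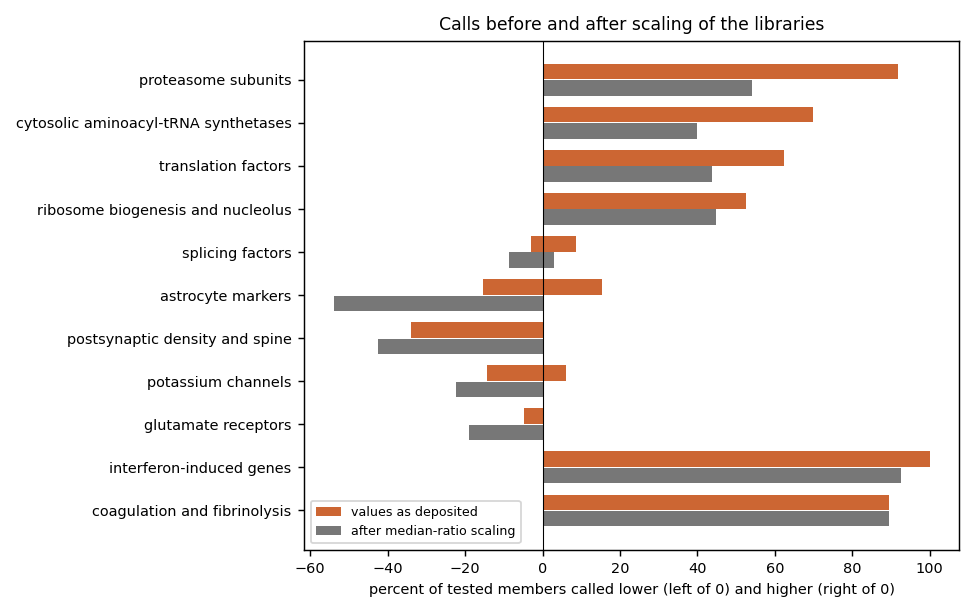
For each of 11 gene lists the bars give the percent of tested members called higher (right of 0) and lower (left of 0) with FPKM as deposited and after median-ratio scaling. Proteasome subunits go from 34 to 20 higher members of 37, astrocyte markers from 2 to 7 lower members of 13, and coagulation genes stay at 17 higher of 19.

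The genes that fell were fewer, and transcripts that neuronal activity induces were among the largest falls. Of 20 tested activity-induced genes, all at 1 FPKM or more in every sham library, 10 fell and 1 rose (median -0.52). After median-ratio scaling 11 fell, without R24h_C3 10, and without any one of the 4 limiting libraries 4 to 6. Egr4 (ENSMUSG00000071341), a zinc finger transcription factor, was at 18.2, 19.8 and 15.6 FPKM in sham and at 3.16, 5.12 and 2.35 FPKM at 24 h (-2.09, SE 0.22, limma adjusted p = 0.00403). Arc (ENSMUSG00000022602), which controls glutamate receptors at the synapse, was at 136, 147 and 81.7 FPKM in sham and at 34.0, 26.2 and 26.4 FPKM at 24 h. Sham_C3 was the lowest of its group and still above every 24 h library (-2.0, SE 0.24, limma adjusted p = 0.00529). Nr4a1 (ENSMUSG00000023034), an immediate-early nuclear receptor, was at 78.4, 85.7 and 63.5 FPKM in sham and at 20.1, 17.6 and 19.1 FPKM at 24 h (-1.94, SE 0.13, limma adjusted p = 0.0012). Egr3 was lower by a similar amount (-1.83). Nr4a2 (-2.06) and Egr1 (-1.22) passed, but not without Sham_C1, Sham_C2 or R24h_C1 (adjusted p up to 0.076 and 0.079). The member that rose was Vgf (1.36), which codes for a neuropeptide precursor.

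The host transcript of 2 activity-linked microRNAs fell with them. 1700016P03Rik (ENSMUSG00000085609), whose gene model spans both microRNA genes on the same strand, was at 2.59, 3.76 and 2.46 FPKM in sham and at 0.438, 0.355 and 0.449 FPKM at 24 h (-1.46, SE 0.14, limma adjusted p = 0.00335). It was under 1 FPKM in every 24 h library, so it could enter the test only through the sham libraries. Mir212 (ENSMUSG00000065590) was at 10.3, 12.9 and 10.0 FPKM in sham and at 1.38, 2.36 and 1.35 FPKM at 24 h (-2.17, SE 0.17, limma adjusted p = 0.00178). Mir132 (ENSMUSG00000065537) was at 3.38, 4.16 and 4.28 FPKM in sham and at 0.654, 1.10 and 1.49 FPKM at 24 h (-1.26, SE 0.17, limma adjusted p = 0.00715). None of the 3 overlapped between groups. Poly(A) libraries hold long transcripts, so these are fragments of the host RNA over the microRNA genes; mature microRNAs were not measured, and the 3 values share reads. The mature sequences (RefSeq, GRCm38.p6, chromosome 11, plus strand) are shown because both have the same seed, bases 2 to 8, in capitals, and their hairpins lie 203 bases apart.
mmu-miR-212-3p (chr11:75173443-75173464): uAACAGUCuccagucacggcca
mmu-miR-132-3p (chr11:75173723-75173744): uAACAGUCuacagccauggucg

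Some synaptic and ion channel genes fell, and most did not pass. Of 47 tested genes of the postsynaptic density and spine 16 fell and none rose (median -0.39), 20 after median-ratio scaling, 10 without R24h_C3, 28 without R24h_C2, and 2 to 5 without any one of the 4 limiting libraries. Synpo (ENSMUSG00000043079), synaptopodin of the spine apparatus, had the largest fall among them and was at 31.7, 28.4 and 23.8 FPKM in sham and at 4.82, 5.88 and 5.04 FPKM at 24 h. The 24 h libraries were level, and the difference was -2.21 (SE 0.13, limma adjusted p = 0.000815). Camk2a (ENSMUSG00000024617), the kinase most abundant at excitatory synapses, was at 445, 427 and 413 FPKM in sham and at 203, 319 and 136 FPKM at 24 h. R24h_C3 was the lowest, and the call (-1.05, SE 0.29, limma adjusted p = 0.0411) was lost without any sham library or without R24h_C1 (adjusted p up to 0.124) and, with the filter applied anew, also without R24h_C3. Shank1 (-1.04), a scaffold protein gene, passed but not without any one sham library (adjusted p up to 0.0679) or, with the filter applied anew, without R24h_C1.

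Of 49 tested potassium channel genes 7 fell and 3 rose, which became 11 and none after median-ratio scaling, and 19 fell without R24h_C2, 1 or 2 without any one of the 4 limiting libraries. Kcnh4 (ENSMUSG00000035355), a voltage-gated potassium channel, was at 9.19, 10.4 and 10.1 FPKM in sham and at 2.63, 4.42 and 4.04 FPKM at 24 h (-1.23, SE 0.16, limma adjusted p = 0.00669). No 24 h library reached a sham library. Of 29 tested sodium, calcium and HCN channel genes 6 fell and 1 rose, of 35 vesicle release genes 5 fell, of 32 calcium and kinase signalling genes 6 fell, of 21 glutamate receptor genes 1 fell (4.76%) and of 17 GABA and glycine receptor genes 1 fell (5.88%), against 4.24% of all tested genes. Without R24h_C2 these 5 lists had 10, 14, 21, 8 and 3 lower members, and without any one of the 4 limiting libraries 0 or 1; 4 glutamate receptor genes fell without R24h_C3. Pan-neuronal markers passed in 2 of 12 cases (both lower, and neither without any one of the 4 limiting libraries), and excitatory neuron markers in 1 of 11 (lower, median -0.56). Without R24h_C3 3 excitatory markers were lower, and without any one of the 4 limiting libraries none. Inhibitory and striatal neuron markers passed in none of 10 and 11, but 4 striatal markers were lower without R24h_C3. By the GO column, 32 of 196 postsynaptic density genes were lower and 16 higher (48 and 9 after scaling), with 3 lower without Sham_C2, 23 without R24h_C3 and 67 without R24h_C2.

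A few other transcripts fell with little spread. Per2 (ENSMUSG00000055866), a repressor of the circadian clock, was at 16.6, 17.4 and 12.6 FPKM in sham and at 6.82, 6.30 and 7.01 FPKM at 24 h (-1.09, SE 0.13, limma adjusted p = 0.00564). Over 19 tested clock genes 3 fell and 1 rose (6 fell without R24h_C2, 1 without Sham_C1, Sham_C2 or R24h_C1), and the time of day at which tissue was taken is not given in the sources used here. Meg3 (ENSMUSG00000021268), a maternally expressed long non-coding RNA, was at 241, 247 and 265 FPKM in sham and at 95.0, 125 and 125 FPKM at 24 h (-1.13, SE 0.13, limma adjusted p = 0.00542). Cort (-1.18), the cortistatin gene of inhibitory interneurons, was lower as well. In these genes the highest 24 h library was below the lowest sham library.

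The same surgery under the shRNA against Tiparp gives a second set of libraries that shares none with the first. In that arm 30 of 13509 tested genes passed (0.222%), 18 higher (0.133%) and 12 lower (0.0888%). Of the 2747 genes higher in the scramble arm 92.4% had a difference of the same sign there, as did 90.5% of the 588 lower genes, against 69.7% of all tested genes and 62.6% of those that did not pass. These genes were chosen by their values in the scramble arm, so their sizes cannot be compared between arms. Over all tested genes the median was 0.13 in the scramble arm and 0.07 in the other. The filter for these genes used scramble-arm values, so this is no even comparison either. The median of the higher genes was 0.65 in the scramble arm and 0.32 in the other, at 0.35, 0.53 and 0.07 in R24h_T1, R24h_T2 and R24h_T3. Of the genes that passed in the scramble arm 16 higher and 5 lower ones passed in both arms, among them Gfap (2.52, limma adjusted p = 0.033), Gbp2 (2.47, limma adjusted p = 0.0277), Nr4a1 (-1.98, limma adjusted p = 0.00334) and Egr4 (-1.62, limma adjusted p = 0.024). Nr4a1 was at 64.1, 73.0 and 72.9 FPKM in Sham_T1 to Sham_T3 and at 15.7, 17.6 and 17.5 FPKM in R24h_T1 to R24h_T3, close to its levels in the scramble arm. A test of the difference between arms was not made here.

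**Figure D5:**
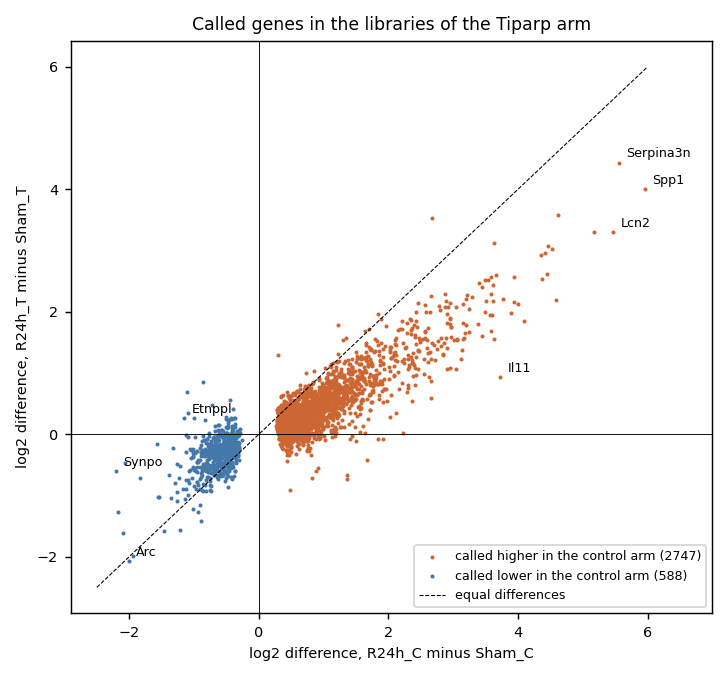
Each point is 1 gene that passed in the scramble arm (2747 higher, 588 lower), with its log2 difference, 24 h minus sham, in the scramble arm on the horizontal axis and in the Tiparp shRNA arm on the vertical axis; the dashed line marks equal differences. Of the higher genes 92.4% and of the lower genes 90.5% lie on the same side of 0 in both arms, and the genes were chosen by the horizontal axis.

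Tiparp itself, a mono-ADP-ribosyltransferase gene, was at 4.45, 4.76 and 3.77 FPKM in sham and at 6.66, 4.60 and 8.65 FPKM at 24 h in the scramble arm; the groups overlapped and it did not pass (0.49, SE 0.20, limma adjusted p = 0.117). At 28 d in the scramble arm the genes that had been higher at 24 h stood at medians of 0.05, 0.19 and 0.16 above sham in the 3 libraries, a comparison that uses the same sham libraries.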

How the data were processed

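The deposited values were FPKM per gene, which the authors made, per the submitters' processing notes, with HISAT, StringTie and edgeR on mm9; versions and settings are not given in the sources used here. Per the labels' protocols the libraries carried molecular identifiers, but their use in quantification is not stated, and the labels name both HiSeq and NovaSeq. FPKM gives no read totals; low values gave a rough depth of 0.995 to 1.07 relative to Sham_C1 for the 6 libraries.

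A linear model with a mean-variance trend (limma 3.58.1, R 4.3.3) was fitted to log2(FPKM + 1) of the 6 libraries, two-sided, with p adjusted over 13880 genes; 62 symbols were repeated, and of each the entry with the highest mean was used. The main fit did not pair libraries by replicate number. Libraries of the same number had correlations of deviations of 0.081, 0.077 and 0.013, so a pairing is neither shown nor excluded. The code was tested on simulated data. The 70 gene lists, 62 GO terms and the members were chosen with earlier results of these data known. Named genes were drawn from the 25 largest differences each way, up to 4 passing members of each list (where none passed, the 2 with the smallest p), the 10 most abundant passing genes each way, genes near 0 in sham, those with the largest spread at 24 h, Tiparp and the cell type markers. Alternatives were a pseudocount of 0.1, no filter, a filter on the mean, 2 scalings, array weights, a replicate block, a joint fit over all 18 libraries and each library removed in turn. Removing each library with the same genes tested was added after seeing the data. A gene annotation of GRCm38 matched 37225 IDs and was used only for overlapping gene models, and RefSeq tables only for sequences. Further promoter motifs were searched, with these shares in genes that rose by at least 1 against all tested. The CRE (TGACGTCA) was in 1.35% against 3.62%, the metal response element in 16.5% against 31.5% and the CEBP-ATF site in 0.385% against 0.541%. The antioxidant response element was in 18.3% against 16.8%, the STAT site in 11.9% against 8.14% and the SRF CArG box in 0.192% against 0.0306%.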

Additional observations from a re-analysis of the deposited data

How the results depend on the processing

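The files give no read totals, so counting error is unknown and the precision rests on 3 libraries a group. No alternative gave a called gene named in the text the opposite sign. The choroid plexus gene Ttr, which did not pass, was at -0.04 with array weights, at -0.20 without R24h_C3 and at 3.65 without R24h_C1.

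The 2747 higher and 588 lower genes became 1524 and 245 with no filter on low values, 1565 and 1104 after median-ratio scaling and 5473 and 2088 with array weights, whose fit gave a convergence warning. Genes lower by at least 1, 50 here, were 101 with a pseudocount of 0.1, 29 with no filter, 100 after median-ratio scaling and 135 with array weights. List members that passed, 638 here, were 414 with no filter and 964 with array weights. The causes were not tested.

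With 1 library left out and the filter applied anew, in which genes near 0 in sham drop out by construction when a 24 h library is missing, the counts ranged from 260 to 3651 higher, 55 to 1203 lower, 187 to 628 higher by at least 1, 19 to 135 lower by at least 1 and 123 to 680 list members.

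With the same genes tested, an alternative added after seeing the data, the higher genes were 687, 482, 672, 788 and 4163 without Sham_C1, Sham_C2, Sham_C3, R24h_C1 and R24h_C2. In that order the lower genes were 79, 57, 92, 133 and 1248, and those lower by at least 1 were 22, 23, 30, 26 and 135. Those higher by at least 1 were 475, 391 and 475 without Sham_C1, Sham_C2 and R24h_C1. List members were 277, 219, 280 and 312 without Sham_C1, Sham_C2, Sham_C3 and R24h_C1.

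With the replicate number as a block 1683 genes were higher and 309 lower. Every library correlated best with its own number, a hint from the data and not the design, but each correlation was under 0.1.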

Other observations

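Some genes did not pass because the libraries of one group were far apart, and they were picked after their values were seen. Cx3cl1, the membrane-bound chemokine of neurons, was at 144, 152 and 134 FPKM in Sham_C1 to Sham_C3 and at 15.0, 120 and 11.2 FPKM in R24h_C1 to R24h_C3 (-2.33, SE 0.81, limma adjusted p = 0.0779). Its microglial receptor gene Cx3cr1 was at 8.58, 8.82 and 10.9 FPKM in sham and at 1.70, 1.29 and 10.4 FPKM at 24 h (-1.33, SE 0.58, limma adjusted p = 0.135). R24h_C2 was near sham for the ligand and R24h_C3 for the receptor, but the Cx3cr1 model overlaps 9 others, among them Gorasp1, Csrnp1 and Xirp1 on its own strand, so its value may hold their reads. The linker histone gene H1fx was at 5.77, 7.16 and 7.90 FPKM in sham and listed at 0, 5.57 and 0.523 FPKM at 24 h. Rac1, a small GTPase of the actin cytoskeleton, was at 9.96, 11 and 53.7 FPKM in sham and at 66.1, 62.5 and 66.5 FPKM at 24 h, so that Sham_C3 lay with the 24 h libraries. Pcdhgb8, a clustered protocadherin gene that overlaps other gene models on its strand, was at 52.9, 0.407 and 0.362 FPKM in sham and at 48.4, 49.9 and 46.4 FPKM at 24 h. No test of these splits was made.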
